A study of Mus musculus with 2 samples.

Results

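The 7 genes described here are immunity-related GTPases of the mouse: Irgm1, Irgm2, Igtp, Iigp1, Ifi47, Tgtp1 and Tgtp2. They were taken by their symbols in the transcript identifiers and joined to the gene tables by gene identifier, which found 7 of 7 among 55450 named genes. The study sequenced ribosomal RNA-depleted total RNA from bone marrow-derived macrophages of mouse strain C57BL/6J. All cells had been treated with Lipid A, the part of bacterial lipopolysaccharide that the receptor Tlr4 senses, at 100 ng/ml for 120 min. RNA was isolated from nucleoplasm, the soluble content of the nucleus, although a separate label field says only nucleus. This single group has 2 libraries, biological replicates 1 and 2, which share a donor entry; sex and age were not recorded, and RNA input was 1 µg for replicate 1 and 500 ng for replicate 2.

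Replicate and RNA input cannot be told apart. No untreated cells, other time or other fraction were analysed here. A level given here is therefore not an induction, no test was possible, and the SD over 2 libraries is the only error between libraries. The gene tables held 14374739 and 16372797 estimated counts. All 9 macrophage markers checked were detected (1 TPM or more in both libraries, TPM being transcript abundance per length scaled to the same total in each library), and together they gave 967 TPM in replicate 1 and 2218 TPM in replicate 2. By that threshold, 8886 of 21938 nuclear-encoded protein-coding genes were detected. Of the T and NK cell markers, Cd3e, Ncr1 and Klrb1c were at 0 in both libraries in these tables. The 5 T and NK cell markers together had 3 and 2 counts. The 3 B cell markers had 22 and 5 counts and the 3 neutrophil markers 4 and 8, with Ly6g at 0 in both. The deposited estimates made directly from reads gave higher values for some of these. Cd3d had 307 and 485 counts there (8.21 and 7.28 TPM), Cd8a 70.5 and 56.5, and Cd3e 9.08 and 5.83. Ms4a1 had 97.3 and 55.1 and Mpo 64.8 and 47.7, whereas Ncr1, Klrb1c and Ly6g were again at 0. The libraries differed in the 3 stromal collagen markers, which had 4197 counts in replicate 1 and 13 in replicate 2. In such bulk RNA, fewer cells of a type and less RNA per cell cannot be told apart.

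Immunity-related GTPases are interferon-inducible proteins of cell-autonomous defence, which assemble on the vacuoles of intracellular microbes and break them open. They form 2 classes, named for a motif in the nucleotide-binding site. The regulators Irgm1, Irgm2 and Igtp (also called Irgm3) belong to the GMS class, sit on the cell's own membranes and hold the effectors inactive there. The effectors Iigp1 (Irga6), Ifi47 (Irgd), Tgtp1 and Tgtp2 (both Irgb6) belong to the GKS class and are loaded onto the vacuole with the help of the autophagy conjugation system. Their transcription is known to respond to interferon gamma through GAS elements and to type I interferon through ISRE elements in their promoters.

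The sequence upstream of the genes is shown first because 4 of them carried the same arrangement of interferon-response motifs there. The RefSeq promoter table for GRCm38.p6, the assembly that mm10 names, held 6 of the 7 genes, without Iigp1. Each entry runs from 250 bases before to 50 bases after the annotated start. The sequences below are the 100 bases before the start, 5′ to 3′ on the strand of the gene. Capitals mark matches to the ISRE core GAAANNGAAA or to the GAS pattern TTCNNNGAA, each searched on both strands.
Irgm1: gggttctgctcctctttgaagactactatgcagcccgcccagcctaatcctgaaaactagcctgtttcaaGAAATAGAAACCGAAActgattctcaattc
Irgm2: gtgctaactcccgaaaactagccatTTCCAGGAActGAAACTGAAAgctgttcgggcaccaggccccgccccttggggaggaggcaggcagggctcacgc
Igtp: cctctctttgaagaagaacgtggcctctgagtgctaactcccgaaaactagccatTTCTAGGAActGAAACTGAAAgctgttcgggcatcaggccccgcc
Tgtp1: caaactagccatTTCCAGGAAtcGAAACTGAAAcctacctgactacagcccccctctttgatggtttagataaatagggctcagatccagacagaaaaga
Tgtp2: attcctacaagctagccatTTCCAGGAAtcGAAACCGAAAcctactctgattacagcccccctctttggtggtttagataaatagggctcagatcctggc
The windows are chr11:48871421-48871520 on the minus strand for Irgm1, chr11:58214877-58214976 on the plus strand for Irgm2 and chr11:58199456-58199555 on the plus strand for Igtp. Those of the Tgtp genes, both on the minus strand, are chr11:48992247-48992346 for Tgtp1 and chr11:49064213-49064312 for Tgtp2.

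In the whole 300-base entries, 5 of the 6 genes matched the ISRE core, against 3.44% of 32851 promoters in the table. A GAS match was present in 4 of the 6, against 8.30% of promoters, and both patterns together in the same 4, against 0.454%. In Irgm2, Igtp, Tgtp1 and Tgtp2 the GAS match was followed after 2 bases by the ISRE core. That joint pattern, written down after these promoters had been read, was present in 5 of the 32851 entries (0.0152%). The fifth entry belonged to Gm12185, another immunity-related GTPase gene of the same region of chromosome 11, whose window is chr11:48927133-48927432 on the minus strand. Irgm1 had no GAS match and a pair of overlapping ISRE cores, at bases -30 to -21 and -24 to -15 from the start. The ISRE core lay at -64 to -55 in Irgm2, at -34 to -25 in Igtp, at -77 to -68 in Tgtp1 and at -70 to -61 in Tgtp2. These positions count from the annotated start, which in Irgm2 lies 51 bases before the start of its main transcript, Irgm2-202. In Igtp the annotated start is also that of its main transcript, Igtp-201. The promoters of Irgm2 and Igtp were 72.8% identical and shared a run of 61 bases. Those of Tgtp1 and Tgtp2 were 66.8% identical and shared a run of 27. The longest run shared by Irgm2 and Tgtp1 was 20 bases and holds the GAS match. Matches in such related promoters are not independent, which the shares over all promoters do not allow for. None of the 6 genes searched matched the kappa B pattern, which 8.46% of promoters held. So few entries cannot show that the pattern is rarer here. Ifi47 matched neither ISRE nor GAS, but its entry sits at the start of Ifi47-202, a transcript with 0.777% and 0.461% of the gene's TPM, 10452 bases before the start of its main transcript. Of the 6 other family genes in the promoter table, 3 matched the ISRE core (9930111J21Rik1, Gm12185 and Gm12250). A match is a description of letters in this window and was not set against binding data.

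**Figure D1:**
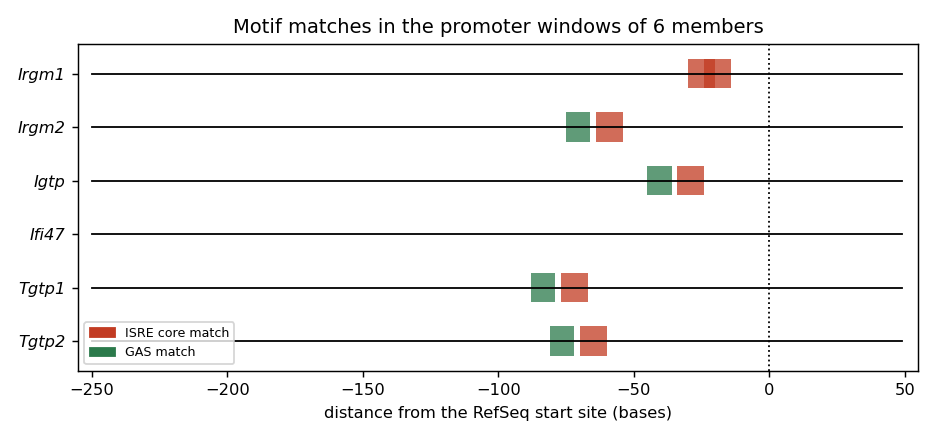
Position of ISRE core and GAS matches in the 6 promoter entries, on an axis of distance in bases from the annotated start, with 1 line per gene. The Irgm2, Igtp, Tgtp1 and Tgtp2 lines each carry a GAS match directly before an ISRE match, the Irgm1 line carries 2 overlapping ISRE matches and the Ifi47 line none.

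All 7 genes were detected in both libraries, compared with 8886 of 21938 nuclear-encoded protein-coding genes. The median of the 7 genes was 92.1 TPM in replicate 1 and 91.2 TPM in replicate 2. Over the 8886 detected genes it was 10.7 and 7.35 TPM. Together the 7 genes took 22991 counts in replicate 1, or 0.160% of all counts (95% Wilson interval 0.158% to 0.162%). In replicate 2 they took 33324 counts, or 0.204% (0.201% to 0.206%). The share was higher in replicate 2, and the intervals did not overlap. They cover only the counting of reads taken as independent, and not the spread between libraries. Reads that carry no molecular identifier may be copies of 1 molecule, so the intervals can be too narrow. Their summed TPM was 849 and 790.

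Among the regulators, Irgm1 was highest. Irgm1 (chr11:48861968-48871683, minus strand in mm10, as are all gene positions) encodes a regulator found on Golgi, lysosomal and mitochondrial membranes and required for resistance to several intracellular bacteria. It had 4787 and 7421 counts, and 168 TPM in replicate 1 and 179 TPM in replicate 2 (174 ± 7.55, SD, n = 2 here and below). It ranked 286 and 155 among the 8886 detected protein-coding genes. Igtp (chr11:58199556-58207591, plus strand), a regulator on the endoplasmic reticulum and lipid droplets, had 2093 and 2668 counts, or 83.2 and 70.2 TPM (76.7 ± 9.21). Irgm2 (chr11:58199618-58222782, plus strand), found mainly at the Golgi, had 2501 and 4011 counts, or 54.7 and 58.1 TPM (56.4 ± 2.44). The 3 regulators did not overlap in TPM between libraries: both Irgm1 values lay above both Igtp values, and these above both Irgm2 values. Irgm2 exceeded Igtp in counts but not in TPM, which is per length: Irgm2-202, its main transcript, is 3459 bases long and Igtp-201 is 2022.

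Among the effectors, Iigp1 was the highest of all 7 genes and Tgtp1 the lowest. Iigp1 (chr18:60376027-60392634, plus strand) encodes the best-studied effector, which oligomerises on the vacuole of Toxoplasma. It had 8596 and 11490 counts, or 346 and 281 TPM (313 ± 45.9), and ranked 97 and 76. Ifi47 (chr11:49076587-49096974, plus strand) had 1903 and 2706 counts, or 102 and 91.2 TPM (96.4 ± 7.47). Tgtp2 (chr11:49057194-49064206, minus strand), whose protein is among the first to load onto that vacuole, had 3001 and 4680 counts, or 92.1 and 102 TPM (97.2 ± 7.30). Ifi47 and Tgtp2 were the only neighbours in the order whose TPM ranges overlapped, and Ifi47 was above Tgtp2 in replicate 1 and below it in replicate 2. Tgtp1 (chr11:48985327-48994172, minus strand) had 110 and 348 counts, or 3.21 and 8.30 TPM (5.76 ± 3.60), and ranked 7404 and 4134. Both Tgtp1 values lay below every value of the other 6 members.

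**Figure D2:**
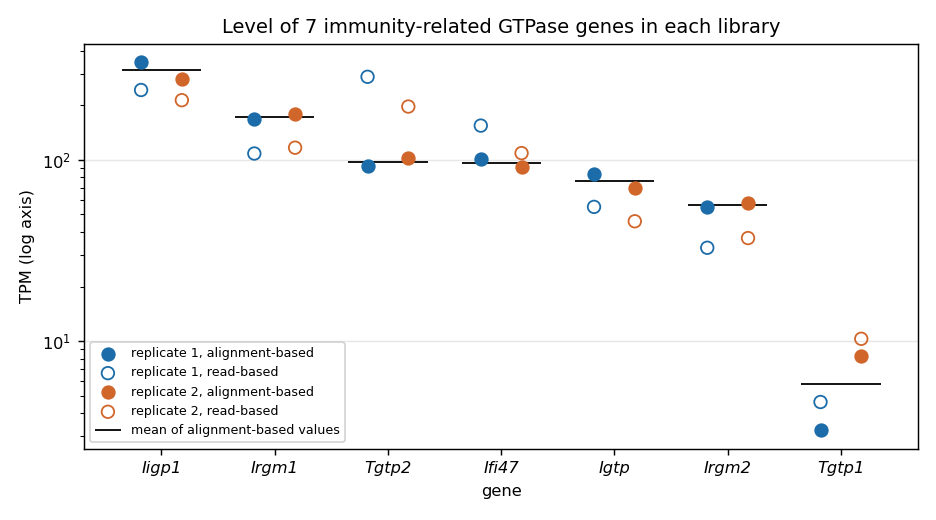
TPM of each of the 7 genes (log axis) in replicate 1 and replicate 2, with filled points for the alignment-based and open points for the read-based table and a line at the mean of the alignment-based values. In the alignment-based table Iigp1 lies at 346 and 281 TPM, 5 genes lie between 54.7 and 179 TPM, and Tgtp1 lies at 3.21 and 8.30 TPM.

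**Figure D3:**
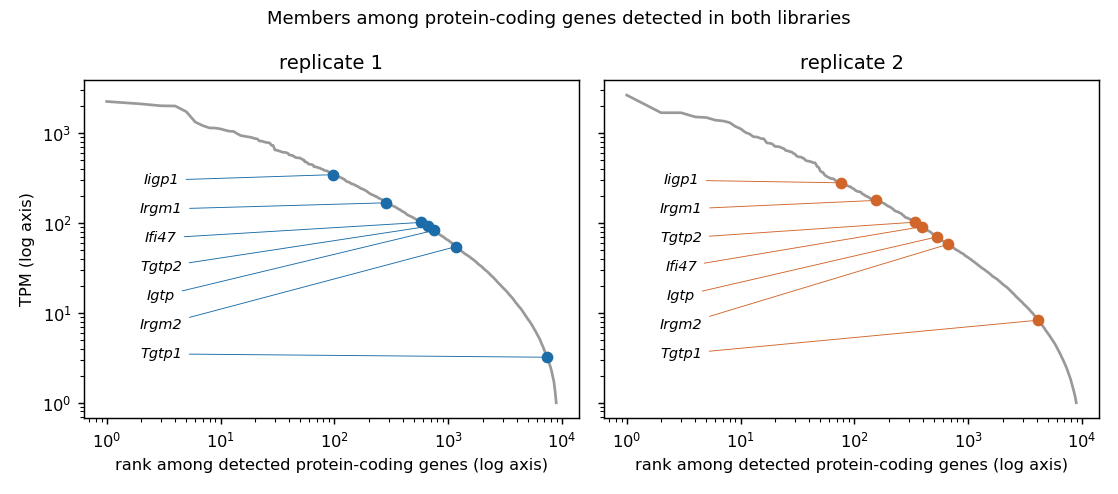
TPM against rank for the 8886 protein-coding genes detected in both libraries (both axes log), with the 7 genes as points on the curve of each library. Iigp1 ranks 97 and 76, whereas Tgtp1 ranks 7404 in replicate 1 and 4134 in replicate 2.

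The 3 regulators summed to 306 and 307 TPM, and the 4 effectors to 543 and 483 TPM. Over all transcripts together, the effectors therefore exceeded the regulators 1.77-fold in replicate 1 and 1.57-fold in replicate 2. In the read-based transcript table, which the authors made from the read files without the alignment, the same ratio was 3.52 and 2.66. That table also changed the order of the genes, with Tgtp2 first at 288 and 197 TPM and Iigp1 next at 243 and 214 TPM. Ifi47 followed at 155 and 109 TPM, and then Irgm1 at 109 and 117 TPM. Igtp had 55.1 and 45.8 TPM there, Irgm2 had 32.7 and 37.0 TPM, and Tgtp1 was again last at 4.61 and 10.3 TPM. Counts were less affected: the read-based count was 1.20 to 1.76 times the alignment-based count over the members in replicate 1 and 1.41 to 1.85 times in replicate 2, near the medians of 1.42 and 1.65 over detected protein-coding genes. The ratio of effectors to regulators in TPM thus rests on how transcript abundance was estimated. It also includes transcripts of a class without coding sequence, described below. In the alignment-based table these held 65.6% and 54.5% of the TPM of Iigp1, and 11.4% and 18.1% of Tgtp2. In Irgm1 they held 5.74% and 2.20%. The processed transcripts Iigp1-203 and Iigp1-205 had 88.3 and 138 TPM in replicate 1, and 61.2 and 92.0 TPM in replicate 2. The coding transcript Iigp1-202 had 108 and 122 TPM, and Iigp1-201 had 11.0 and 6.01 TPM. Irgm1-202 had 106 and 125 TPM, and Irgm1-201, also coding, had 52.8 and 49.9 TPM. The first place of Iigp1 is for all its transcripts together. Its coding transcripts summed to less than those of Irgm1 in both libraries. No ratio of effectors to regulators over coding transcripts was calculated.

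Tgtp1 and Tgtp2 are near-identical copies, and their levels include an estimate of how shared reads divide between them. Their coding sequences are each 1245 bases long and differ at 4 positions, counted from 1 at the start codon with the Tgtp1 base first: G270C, C408T, C729T and C735A. The longest run without a difference was 510 bases, longer than the fragments that the labels give. The stretch from coding position 676 to 735 is shown because it holds 2 of the 4 differences, in capitals, and because a read without such a base fits both genes.
Tgtp1: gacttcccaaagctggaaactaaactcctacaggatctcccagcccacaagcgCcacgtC
Tgtp2: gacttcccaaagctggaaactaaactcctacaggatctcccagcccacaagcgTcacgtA
It lies at chr11:48987142-48987201 in Tgtp1 and chr11:49059009-49059068 in Tgtp2, both on the minus strand in mm10. Of all 31-base words in the annotated transcripts of Tgtp1, 84.4% also occurred in another gene, and in Tgtp2 90.5%. The posterior SD of the deposited count, which measures the uncertainty of dividing reads, was 14.4 counts in replicate 1 and 20.9 in replicate 2 for Tgtp1. That was 13.1% and 6.02% of its count, and at most 0.478% for every other member. Tgtp1 held 3.53% and 6.92% of the counts of the pair, and 3.35% and 7.51% in the read-based table. The summed pair had 95.3 and 111 TPM. Dividing reads within the pair leaves its summed count unchanged, but TPM also depends on the length of the transcripts that receive them. Gm12185 shared 7.22% of the words of Tgtp1 and 7.81% of those of Tgtp2, so reads can also divide outside the pair.

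The other members are far less alike. Coding identity was 63.5% to 67.8% among the 3 regulators, 56.1% to 58.5% among Iigp1, Ifi47 and the Tgtp genes, and 50.6% to 54.2% between a regulator and an effector. Shared 31-base words made up 15.9% of Igtp and 10.7% of Irgm2, of which 326 were common to both genes, and 2.88% to 6.92% of Irgm1, Iigp1 and Ifi47. Annotated gene bodies also overlap. Igtp lies almost wholly inside Irgm2 on the same strand, over 7974 bases, through Irgm2-201, which starts in the first exon of Igtp. That transcript, named after its values were seen, held 2.87% and 2.75% of the TPM of Irgm2. Ifi47, Tgtp1 and Tgtp2 lie inside the olfactory receptor gene Olfr56, which had 98 and 234 counts, and only Ifi47 shares its strand. The processed pseudogene Gm12188 lies within Ifi47 on the opposite strand and had 223 and 114 counts. Tgtp1 overlaps Gm12185 on the same strand over 6900 bases, and Gm12185 had 132 and 172 counts. Whether counting used strand is not given in the sources used here.

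Transcript shares were examined because the 7 genes have 24 annotated transcripts, 4 of them of the class processed_transcript, which has no coding sequence. In Iigp1 the coding transcript Iigp1-202 held 31.2% of the gene's TPM in replicate 1 and 43.3% in replicate 2. The processed transcripts Iigp1-203 (25.5% and 21.8%) and Iigp1-205 (40.0% and 32.7%) held most of the rest. Both start in the first exon of the gene and end inside the first intron of Iigp1-201 and Iigp1-202. Of their bases, 94.0% in Iigp1-203 and 92.4% in Iigp1-205 lie outside the exons of the coding transcripts. Reads of unspliced Iigp1 RNA would fall on the same bases, and their part in these shares was not tested. Together Iigp1-203 and Iigp1-205 held 65.6% and 54.5% of the TPM of Iigp1 and 46.8% and 35.8% of its counts. In the read-based table they held 61.3% and 52.9% of TPM. Iigp1-202 had 12.0% and 20.4% there, and the other coding transcript detected, Iigp1-201, had 26.8% and 26.7% instead of 3.19% and 2.14%. The share outside the coding class was thus higher in replicate 1 in both tables. Over the 8886 detected protein-coding genes the median share outside the coding class was 36.2% in replicate 1 and 29.1% in replicate 2 (48.7% and 41.3% in the read-based table). Of these genes, 17.0% and 23.3% were at or above Iigp1 in the alignment-based table.

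In the alignment-based table the other genes with such transcripts, Irgm1 and Tgtp2, had smaller shares of them. Irgm1 was divided between the coding transcripts Irgm1-202 (62.8% and 69.9% of TPM) and Irgm1-201 (31.4% and 27.9%), an order that the read-based table turned (27.2% and 42.5% against 66.1% and 54.7%). Its processed transcript Irgm1-203, named here after its values were seen, held 5.74% and 2.20%. For Tgtp2 the tables disagreed: the coding Tgtp2-201 held 88.6% and 81.9% in the alignment-based table but 15.2% and 24.8% in the read-based table. The remainder went to Tgtp2-202, a processed transcript of only 370 bases, for which 23.2 and 61.2 counts made 11.4% and 18.1% of TPM. In the read-based table it had 1049 and 1353 counts, or 24.7% and 18.5% of the counts of Tgtp2, which made 84.8% and 75.2% of TPM. TPM divides by effective length, so this transcript took a larger share of TPM than of counts in both tables, and the level of Tgtp2 in the read-based table includes it.

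The genes without processed transcripts were led mostly by 1 coding form. Igtp-201 held 92.2% and 93.4% of the TPM of Igtp, with nearly equal values of 93.8% and 93.0% in the read-based table. Irgm2-202 held 89.1% and 88.8%, and 62.5% and 60.9% in the read-based table, where Irgm2-203 had 36.8% and 38.5% instead of 8.03% and 8.48%. Ifi47-201 led its gene with 78.4% and 88.7%, followed by Ifi47-203 with 14.2% and 7.65%. The read-based table instead listed Ifi47-201 at or very near 0 and spread Ifi47 over Ifi47-203 (51.0% and 42.8%), Ifi47-202 (12.1% and 23.9%), Ifi47-204 (16.4% and 21.1%) and Ifi47-205 (20.5% and 12.3%). Tgtp1-201 held 91.6% and 69.3% and Tgtp1-203 the other 8.41% and 30.7%, the latter from 2.11 and 29.6 counts. The read-based table gave 34.4% and 8.99% of Tgtp1 to Tgtp1-202, which was listed at 0 in the alignment-based table. The share of Igtp-201 was nearly the same in both tables and both libraries, whereas the shares within the other 6 genes depended on the table.

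**Figure D4:**
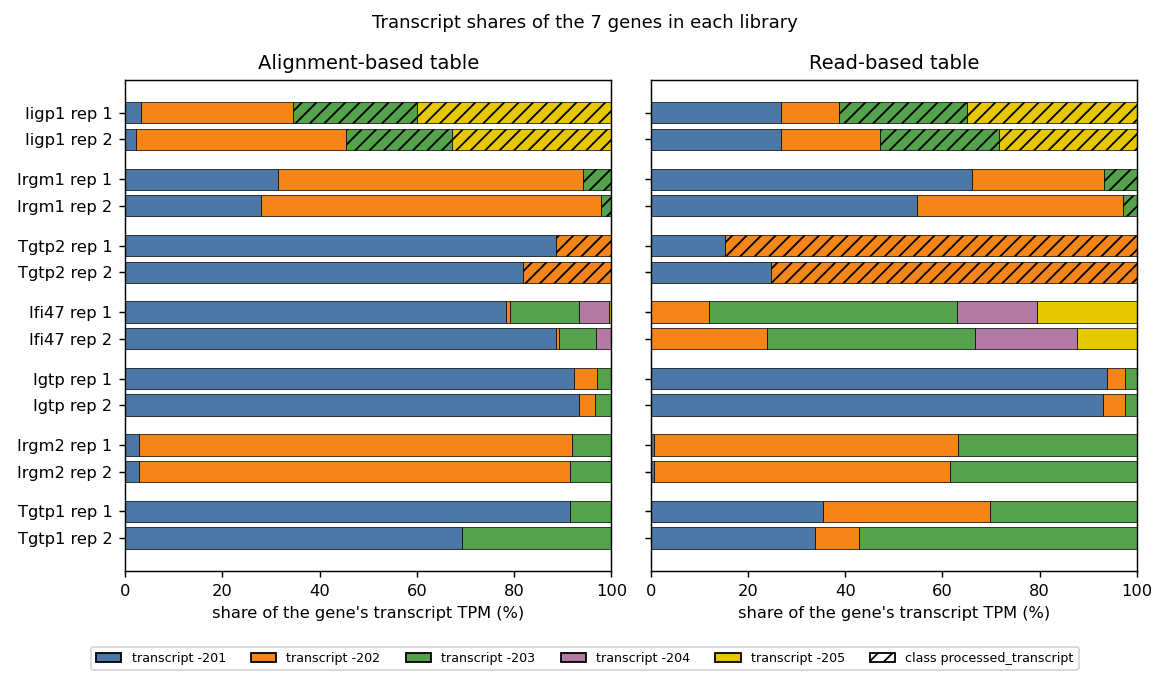
Share of each gene's transcript TPM (percent) in its annotated transcripts, per library, in the alignment-based table and the read-based table, with processed transcripts hatched. Hatched transcripts make up 65.6% and 54.5% of Iigp1 in the alignment-based table, and the bars of Ifi47, Tgtp1 and Tgtp2 differ between the panels.

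The difference between the libraries was described relative to all genes, as log2 of TPM + 1 in replicate 2 over that in replicate 1, minus its median of -0.58 over the 12647 genes whose mean reached 1 TPM. The unadjusted TPM was higher in replicate 2 for 4 members, namely Irgm1, Irgm2, Tgtp1 and Tgtp2, compared with 14.8% of those genes and 16.4% of the nuclear-encoded protein-coding ones. Relative to the median, 7 of 7 members were above 0, compared with 50.0% of genes and 55.7% of protein-coding genes. Only Tgtp1, at 1.73, was past a 2-fold difference, compared with 5.31% of genes and 5.45% of protein-coding genes. No member was 2-fold lower, compared with 5.01% and 1.73%. The relative log2 value was 0.73 for Tgtp2, 0.67 for Irgm1 and for Irgm2, 0.43 for Ifi47, 0.34 for Igtp and 0.28 for Iigp1. The Tgtp pair summed gave 0.80. On the deposited FPKM scale, which follows depth and not a fixed total, all 7 values were higher in replicate 2, for example 339 and 364 FPKM for Iigp1, 165 and 232 for Irgm1, and 81.5 and 91.0 for Igtp, compared with 31.3% of all genes and 35.5% of protein-coding genes. The median over members was 0.67, compared with 0 over all genes by construction. In the read-based table it was 0.44, with Tgtp2 at 0.08 and Ifi47 at 0.13. With no filter on low values in the genes that set the reference it was 0.40, with Iigp1 at 0.01, Igtp at 0.07 and Ifi47 at 0.15. With 1 library on each side this is a description of these libraries and has no test.

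Markers moved between the same libraries. The 9 macrophage markers had a median relative log2 of 1.43, with 7 of 9 above 0 and 5 of 9 at 1 or more, and the 3 stromal markers a median of -3.52. Over all genes at a mean of 1 TPM, 50.0% were above 0 and 5.31% at 1 or more. The part of cell make-up or RNA input in the members' difference was not tested.

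**Figure D5:**
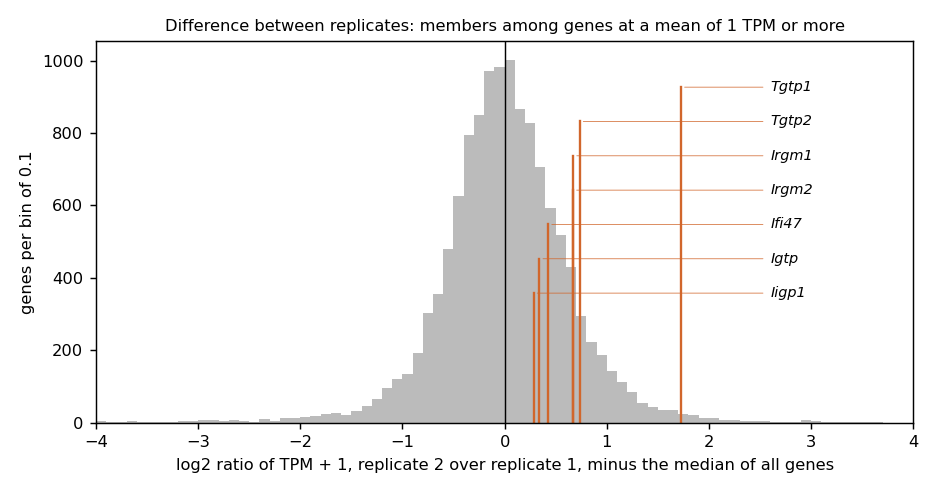
Histogram of the relative log2 ratio of replicate 2 to replicate 1 for the 12647 genes whose mean reached 1 TPM, with the 7 genes marked; 83 genes lie outside the axis, which ends at 4 in both directions. All 7 marks lie to the right of 0, from 0.28 for Iigp1 to 1.73 for Tgtp1.

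The remaining members of the family were taken from a list of 14 genes, of which 11 were detected, with a median of 11.2 TPM over the list. The very large inducible GTPase genes Gm4070 (110 and 80.9 TPM) and Gvin1 (89.2 and 77.4 TPM) lay near Tgtp2 and Ifi47, with a posterior SD of 286 counts in replicate 1 and 310 in replicate 2 for each. The genes 9930111J21Rik1 (93.8 and 57.5 TPM), 9930111J21Rik2 (92.9 and 57.9 TPM) and Gm5431 (38.2 and 35.9 TPM) followed. Gm12250, known as Irgb10, whose protein acts on bacterial membranes, had 61.0 and 57.5 TPM, close to Irgm2. Lower levels were found for Gm4951 (12.0 and 16.9 TPM), F830016B08Rik (8.46 and 7.44 TPM), Irgq (8.31 and 4.70 TPM), Gm12185 (1.86 and 2.80 TPM) and Gm4841 (1.49 and 1.47 TPM). Relative to all genes, 8 of these 11 were above 0 and 1, Gm4951, was at 1 or more, with a median of 0.42. Over all genes at a mean of 1 TPM the shares were 50.0% and 5.31% (55.7% and 5.45% of protein-coding genes). The tables differed in counting these genes, and the read-based count was 15.5 and 12.8 times the alignment-based count for Gm4841, 5.56 and 5.64 times for Gm4951 and 5.60 and 5.14 times for Gm12185.

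Of 14 genes of the interferon pathway that drives this family, 13 were detected, with a median of 78.8 TPM. The transcription factor genes Irf1 (818 and 352 TPM), Stat2 (386 and 189 TPM) and Irf8 (327 and 152 TPM) were highest. The lowest was Ifng, the interferon gamma gene, with 0 counts in replicate 1 and 1 count in replicate 2. Of these 13 genes, 5 were above 0 relative to all genes, compared with 50.0% of genes and 55.7% of protein-coding genes, and the median was -0.16. For Irf1 the value was -0.63.

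All 10 genes of the conjugation system that places effectors on vacuoles were detected, with a median of 11.5 TPM. Gabarap (49.4 and 60.3 TPM), encoding a ubiquitin-like protein of the LC3 family, Atg16l1 (49.3 and 25.0 TPM), which directs the conjugation to membranes, and the conjugating enzyme gene Atg3 (17.4 and 12.4 TPM) were highest, and Map1lc3a (1.19 and 1.24 TPM) was lowest. Relative to all genes 6 of 10 were above 0 and 1 was at 1 or more, with a median of 0.19. These counts lie near the shares over all genes at a mean of 1 TPM, 50.0% and 5.31% (55.7% and 5.45% of protein-coding genes).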

How the data were processed

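Per library, genes and transcripts had been quantified from transcriptome alignments, and transcripts also directly from reads, on mm10 with annotation M21, per the notes deposited with the samples. Whether counting used strand, and which aligner and quantifiers in which versions, is not given in the sources used here. Deposited expected counts are estimated counts that need not be whole, the deposited TPM values are divided by effective length and brought to a fixed total, and the deposited FPKM values are divided by effective length and by depth, per the headers of the files. The TPM of a gene therefore moves with the short RNA of its library. The read-based tables held 21039284 and 27514005 estimated counts.

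Members and lists were chosen with earlier results of these data known. The text names all 7 members, transcripts with 10% or more of their gene's TPM in either library and table, other family genes that reached 1 TPM in each library, and the 3 highest and the lowest gene of each context list. Differences used log2(TPM + 1), which understates those of low genes. Genes past a relative log2 of 1 counted as 2-fold. GENCODE M21 gave coordinates and transcripts, and RefSeq the promoters, with a match for 6 of 7 members. Alternatives were the read-based table, FPKM, another denominator, edgeR 4.0.16 TMM and DESeq2 1.42.0 size-factor scaling (R 4.3.3), a pseudocount of 0.1, no filter, shares of counts, the Tgtp pair summed and each library alone. The ratio script was tested on simulated data. Biopython 1.88, scipy 1.17.1, matplotlib 3.10.9, numpy 2.4.6 and pandas 2.3.3 ran in Python 3.11.15.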

Additional observations from a re-analysis of the deposited data

How the results depend on the processing

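The median level over the 7 members, 96.4 TPM, became 113 TPM in the read-based table, 109 in FPKM and 390.0 when TPM was rescaled over nuclear-encoded protein-coding genes only, and ranged from 91.2 to 92.1 TPM without replicate 1 or without replicate 2. The order of the members was the same in FPKM and with the other denominator. Both rescale all genes of a library by a common factor, so neither can change the order within a library. For the same reason FPKM could change the difference relative to all genes only little. The read-based table placed Tgtp2 above Iigp1, and without replicate 2 Ifi47 stood above Tgtp2. All 7 members were above 0 relative to all genes, and Tgtp1 alone was past 2-fold, under the 6 alternatives for the difference between libraries. The share of genes above 0 was 29.97% with no filter on low values. In the remaining alternatives it ranged from 49.3% in FPKM to 51.8% with TMM scaling. No share of genes past 2-fold is given for the alternatives, so the call of Tgtp1 has no background there. The lowest member ranged from 0.01 with no filter on low values to 0.43 with TMM scaling, and Tgtp1 from 1.45 to 2.03. The median share of the leading transcript, 83.5% of TPM, became 60.4% in the read-based table, 90.2% in expected counts, and ranged from 81.9% without replicate 1 to 88.6% without replicate 2. The cause was not tested. For levels of single members, 17 values under the alternatives moved by less than the SD between replicates and 18 by more. This tally does not measure robustness. With 2 libraries, leaving 1 out always moves a mean by less than that SD. Rescaling over protein-coding genes changes the unit, and all its values moved. Of the read-based and FPKM values, only Iigp1 in FPKM and Tgtp1 in both moved by less than the SD. For differences of single members the limit was instead 0.81, the SD of relative log2 over the 12647 genes. All 42 values moved by less than this, and none changed sign. That limit is wider than the main value of every member but Tgtp1, so large relative moves can pass it. In the read-based table Tgtp2 went from 0.73 to 0.08 and Ifi47 from 0.43 to 0.13. No paired analysis was possible because the series has 1 group. Depth limits mainly Tgtp1, with 110 and 348 counts.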
